A study of Macaca mulatta and Mus musculus with 5 samples.

Results

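In the meninges of mice, 1929 cells carried transcripts of the recombinase gene Rag1 and of the B-cell receptor component Cd79a but none of Ms4a1, the gene of the mature B-cell surface protein CD20. They were chosen from the count table by raw UMIs (unique molecular identifiers, each standing for 1 captured transcript). A barcode needed 300 or more detected genes, at least 2 Rag1 and 3 Cd79a UMIs, at most 1 Dntt UMI, and 0 UMIs of Ms4a1, Mki67 and Cd3e. These cells, called Rag1 cells below, were 13.8% of the 13933 mouse barcodes that passed the gene filter (exact 95% binomial interval 13.3 to 14.4%). They were 1929 of 34959 barcodes in the 5 tables of the series. They were set against 3069 cells with at least 2 Ms4a1 and 3 Cd79a UMIs and no Rag1 UMI, called Ms4a1 B cells.

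All of these cells came from 1 mouse library made with 10x chemistry that reads the 3′ end of transcripts. It pooled hashtag-labelled meningeal cells of C57BL/6 males aged 2, 21 and 48 days, loaded at 30000 cells per channel. The ages share this library, and the hashtag counts that would separate them were not analysed here, so every value below is taken over the ages together. The remaining tables hold meninges and spleen of rhesus macaque and enter no comparison. The sort is written with dashes after CD45 and CD11b, and the labels do not settle whether each dash is a minus sign or only a separator. Ptprc, the gene of CD45, had at least 1 UMI in 66.6% of Rag1 cells and 89.5% of Ms4a1 B cells, and Itgam, the gene of CD11b, in 6.12% and 1.08%, with 0.388% in T cells.

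B cells are made from progenitors that first join heavy chain gene segments and then, as small non-dividing pre-B cells, the segments of a kappa or lambda light chain. RAG1 and RAG2 cut the DNA at these segments, and the breaks are closed by the non-homologous end-joining machinery. Before a light chain exists, a surrogate light chain made of the VPREB1 and IGLL1 proteins pairs with the heavy chain. Cells that finish this step carry IgM and later gain CD20, IgD and the class II proteins that present antigen. Bone marrow is the main site of this process in adult mice.

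With 1 library there are no replicates, so no difference was tested. UMIs were summed over the cells of each class and given as CPM, the level of a gene relative to all UMIs of the class, and each log2 ratio has an exact 95% interval that covers counting error only, not differences between mice. The Rag1 cells held 10507408 UMIs and the Ms4a1 B cells 21520730. Depth per cell was similar, with a lowest, median and highest UMI count of 1324, 5170 and 22131 in Rag1 cells against 1389, 5612 and 105531 in Ms4a1 B cells. Median detected genes were 1977 and 1984, and median mitochondrial shares 5.31% and 5.63%, in the same order. Scrublet, a doublet caller, marked 175 of 13933 barcodes, of which 0 were Rag1 cells and 41 were Ms4a1 B cells, and all were kept. Of the mouse barcodes, 78 also occur in a macaque table, 11 of them in Rag1 cells.

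The genes of the rule describe how the cells were chosen. Rag1 ranged from 2 to 16 UMIs with a median of 3, and 533 cells sat at the limit of 2. Cd79a ranged from 3 to 67 UMIs with a median of 15. The 533 cells at 2 Rag1 UMIs had 4124 CPM of Vpreb3 and 392 CPM of Cd74, against 4015 and 605 CPM in the 624 cells that missed only by having 1 Rag1 UMI. All Rag1 cells together had 345 CPM of Cd74 and 130 CPM of Igll1, against 579 and 194 CPM in the 219 cells that missed by having 1 Ms4a1 UMI. They had 19.7 CPM of Top2a, against 45.5 CPM in the 135 cells that missed by having 1 Mki67 UMI, in which Igll1 had 377 CPM. For Dntt, the 108 cells with 1 UMI had 522 CPM of Igll1, against 876 CPM in 25 cells outside with 2 UMIs. For Cd79a, 14 cells lay at 3 UMIs and 10 at 2, and 33 cells missed by 1 Cd3e UMI.

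The markers below came with the rule and were chosen with earlier results of these data known. Their levels describe the cells and are no independent check of the label. Apart from Rag1 and Cd79a, which the rule used, the 3 small pre-B markers Vpreb3, Rgs16 and Reln were more than 2-fold higher in Rag1 cells, Vpreb3 not under every setting. Vpreb3, an assembly partner of the early receptor chains, had 4018 CPM in Rag1 cells and 1801 CPM in Ms4a1 B cells (log2 ratio 1.16). Its median per cell was 20 UMIs in Rag1 cells and 9 in Ms4a1 B cells. With each cell weighted equally its log2 ratio was 0.88, and with cells thinned to 2000 or 1000 UMIs 0.89 and 0.91, all under 2-fold. Rgs16, which shortens G-protein signals, had 246 CPM in Rag1 cells and 18.5 CPM in Ms4a1 B cells (3.73). Reln, best known as a secreted protein of the developing brain, had 155 and 14.4 CPM (3.44). Neither gene marked every cell: after thinning each cell to 2000 UMIs, Rgs16 was seen in 23.9% of Rag1 cells and 3.33% of Ms4a1 B cells, and Reln in 23.2% and 2.88%. Unthinned, the shares were 36.5% and 7.14% for Rgs16, and 34.5% and 6.03% for Reln. T cells were those with at least 2 Cd3e UMIs, no Ms4a1 and 2 or fewer Cd79a (1805 cells, median 8285 UMIs). They gave a background of 0.167% for Reln (unthinned 0.776%), and Rgs16 was seen in 4.73% of them (unthinned 11.9%). Rgs16 had 33.1 CPM in T cells, above its 18.5 CPM in Ms4a1 B cells, so T cells give no background for it. Thinning left out 5 Rag1 cells, 9 Ms4a1 B cells and 7 T cells. Of the 6 mature B markers apart from Ms4a1, Ighd, Fcer2a, Cr2, Ccr7 and H2-Aa were more than 2-fold lower. Among the early B-lineage classes defined below, Rgs16 was highest in Rag1 cells. Vpreb3 was higher in pro-B cells (5730 CPM) and Reln in cells with both Rag1 and Ms4a1 (222 CPM).

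Of 6163 genes with at least 20 CPM in the higher class, 450 (7.30%) were at least 2-fold higher in Rag1 cells and 447 (7.25%) at least 2-fold lower, and the median log2 ratio was 0.13. With the ratios centred by a median-of-ratios scaling, the counts were 355 higher and 524 lower. With immunoglobulin, ribosomal protein and mitochondrial genes left out of the total, they were 414 higher and 662 lower. These shares are the background for the counts of each gene list that follows.

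**Figure D1:**
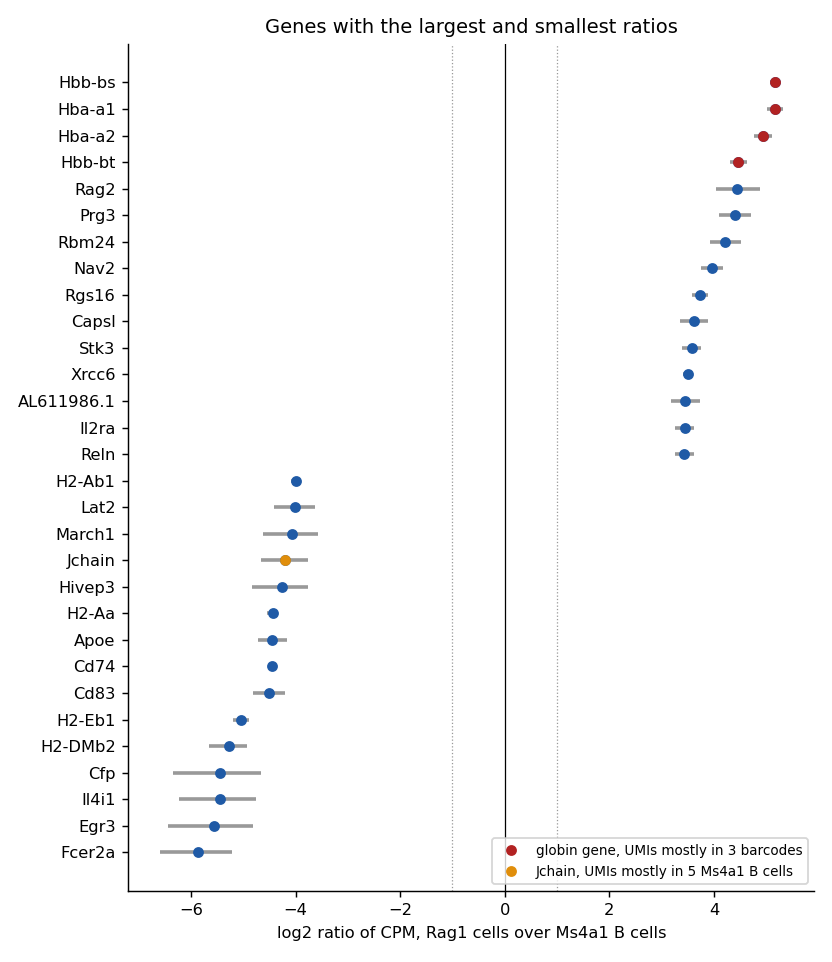
Log2 ratio of CPM, Rag1 cells over Ms4a1 B cells (x axis), for the 15 largest and 15 smallest ratios among genes with at least 50 CPM in the higher class. Points are ratios, grey bars 95% counting intervals and dotted lines a 2-fold ratio. The globin ratios (red) rest on 3 barcodes and that of Jchain (orange) on 5 Ms4a1 B cells.

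The largest ratios were those of 4 globin genes, followed by Rag2, Prg3, Rbm24, Nav2, Rgs16, Capsl, Stk3, Xrcc6, AL611986.1, Il2ra and Reln. The globin genes owed their place to 3 barcodes, which held 96.4% of the globin UMIs of the Rag1 cells. Without those barcodes the log2 ratios were 0.32 for Hbb-bs, 0.29 for Hba-a1, 0.18 for Hba-a2 and -0.11 for Hbb-bt. Prg3, known from the granules of eosinophils, had 99.8 CPM in Rag1 cells and 4.74 CPM in Ms4a1 B cells (4.40). Its UMIs came from 398 Rag1 cells. Rbm24, an RNA-binding protein known from muscle, had 92.2 and 4.97 CPM (4.21) in the same order, and Nav2, named for neuron navigation, had 163 and 10.5 CPM (3.96). Capsl, a calcium-binding protein gene, had 82.5 and 6.74 CPM (3.61), and Stk3, a kinase of the Hippo pathway, 160 and 13.4 CPM (3.58). For the transcript AL611986.1 the levels were 65.5 and 5.99 CPM (3.45).

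The smallest ratios were those of Fcer2a, Egr3, Il4i1, Cfp, H2-DMb2, H2-Eb1, Cd83, Cd74, Apoe, H2-Aa, Hivep3, Jchain, March1, Lat2 and H2-Ab1. Fcer2a, which encodes the IgE receptor CD23 of follicular B cells, had 1.81 CPM in Rag1 cells and 105 CPM in Ms4a1 B cells (-5.87, interval -6.60 to -5.22). Egr3, a transcription factor induced by receptor signals, had 1.33 and 63 CPM (-5.56). Cd83, a surface protein of activated B cells, had 8.76 and 199 CPM (-4.51), and Il4i1, an amino acid oxidase gene, 1.62 and 70.1 CPM (-5.44). Cfp, the gene of the complement factor properdin, had 1.24 and 53.6 CPM (-5.44), and Apoe, a lipid carrier, 10.7 and 232 CPM (-4.44). March1, a ubiquitin ligase that removes class II proteins from the surface, had 3.14 and 52.8 CPM (-4.07). Hivep3 had 2.95 and 56.8 CPM (-4.27), with 73.5 CPM in the pro-B cells defined below, and Lat2, an adaptor of receptor signalling, 5.52 and 89.0 CPM (-4.01). The ratio of Jchain, which links IgM and IgA into polymers, rested on few cells: 5 Ms4a1 B cells held 95.8% of its UMIs in that class, and with each cell weighted equally the log2 ratio was -1.97 in place of -4.20.

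**Figure D2:**
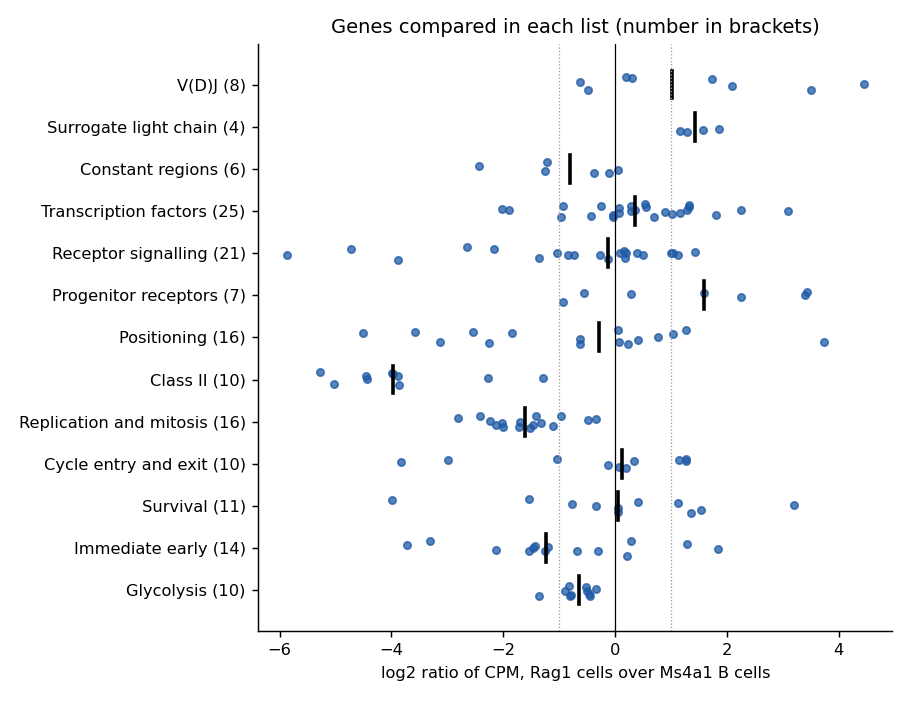
Log2 ratio of CPM, Rag1 cells over Ms4a1 B cells (x axis), for the genes compared in each of 13 lists (rows, number of genes in brackets). Points are genes, black bars list medians and dotted lines a 2-fold ratio. The 10 class II genes all lie to the left, and the 4 genes of the surrogate light chain list all to the right.

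The genes of V(D)J recombination that were compared were higher or within 2-fold. Of 13 in the list, 8 were compared, of which 4 were at least 2-fold higher, 4 within 2-fold and 0 lower (median log2 ratio 1.02, against 0.13 over all genes). Rag2, the partner of RAG1 in the cutting enzyme, lies next to Rag1 on chromosome 2 (101624718 to 101632529, plus strand, in the mouse GRCm38 build). It had 54.7 CPM in Rag1 cells and 2.51 CPM in Ms4a1 B cells (4.45, interval 4.04 to 4.88), and no Rag1 cell held more than 5 of its UMIs. After thinning it was seen in 9.56% of Rag1 cells, 0.327% of Ms4a1 B cells and 0.222% of T cells, and unthinned in 22.7%, 1.43% and 0.942%. The gene model B230118H07Rik overlaps both Rag genes. It lies on the same strand as Rag1, so strand would not separate their shared reads. Rag2 lies on the opposite strand, and it is not known here whether the counting used strand. Reads from these overlaps therefore cannot be told apart here.

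Lig4, the ligase that seals the breaks, had 114 CPM in Rag1 cells and 26.8 CPM in Ms4a1 B cells (2.09). Polm, a polymerase that fills ends during light chain joining, had 217 and 65.4 CPM (1.73). Xrcc6, which encodes the end-binding protein Ku70, had 557 and 49.1 CPM (3.50), and its median per cell was 3 UMIs in Rag1 cells and 0 in Ms4a1 B cells. Xrcc6 lies on chromosome 15 (81987835 to 82040085, plus strand) and overlaps Desi1 on the opposite strand, which had 198 and 36.3 CPM (2.45), so the share of each gene in these reads is uncertain. The gene of the other Ku subunit, Xrcc5, was not compared, at 5.52 CPM in Rag1 cells and 10.8 CPM in Ms4a1 B cells. Also too low to be compared were Prkdc with 10.3 and 17.9 CPM and Poll with 1.71 and 6.32 CPM. Xrcc4 with 17.7 and 15.9 CPM and Nhej1 with 9.80 and 6.88 CPM were left out as well. Dclre1c, the nuclease Artemis that opens the hairpin ends, had 36.5 and 29.4 CPM (0.31), and Atm, a kinase that senses the breaks, 14.5 and 22.2 CPM (-0.62). The chromatin proteins Hmgb1 and Hmgb2, cofactors of the recombinase, had log2 ratios of 0.20 and -0.49.

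The surrogate light chain list holds Igll1, Vpreb1 and Vpreb2, and also Vpreb3, which is not part of that chain. Summed over the class, all 4 genes of the list were at least 2-fold higher in Rag1 cells (median log2 ratio 1.43). Vpreb3 gave 4018 of the 4384 CPM of the list in Rag1 cells. Igll1 had 130 CPM in Rag1 cells and 53.3 CPM in Ms4a1 B cells (1.28), and Vpreb1 had 201 and 67.4 CPM (1.57). Vpreb2, a close copy of Vpreb1 whose reads may be shared with it, had 35.0 and 9.62 CPM (1.86). Igll1, Vpreb1 and Vpreb2 were far from uniform. In 148 Rag1 cells with few kappa and lambda UMIs, described below, Igll1 had 1183 CPM and Vpreb1 1751 CPM. In the other light chain groups of Rag1 cells, Igll1 had 12.9 to 51.7 CPM, Vpreb1 16.7 to 88.0 CPM and Vpreb2 2.09 to 15.7 CPM. None of these levels was 2-fold above that of all Ms4a1 B cells together. The highest for Igll1 and Vpreb1, 51.7 and 88.0 CPM, were those of Rag1 cells with kappa alone. Both were more than 2-fold above the Ms4a1 B cells held to the limits given later in this paragraph. After thinning, Igll1 was seen in 6.55% of Rag1 cells, 2.97% of Ms4a1 B cells and 1.84% of T cells (unthinned 11.4%, 7.56% and 7.65%), and 1 Rag1 cell held 47 Igll1 UMIs. Of the Ms4a1 B cells, 28 also met the definition of cycling cells with a surrogate light chain given below. Held to the limits on Dntt, Mki67 and Cd3e that the Rag1 cells had to meet, 2680 Ms4a1 B cells remained, with 20.4 CPM of Igll1 and 36.9 CPM of Vpreb1 (log2 ratios 2.67 and 2.44). With comparison cells taken from 1 Ms4a1 UMI upward, both were under 2-fold, at 0.48 for Igll1 and 0.81 for Vpreb1, and the settings that put Vpreb3 under 2-fold are given above.

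Among the 6 constant region genes, 3 were at least 2-fold lower in Rag1 cells and 3 within 2-fold (median -0.80). Ighm, the heavy chain of IgM, had 7027 CPM in Rag1 cells and 6741 CPM in Ms4a1 B cells (0.06), and medians per cell of 36 and 38 UMIs. Ighd, spliced from the same transcript in mature B cells, had 56.0 and 301 CPM (-2.43). Igkc, the kappa constant region, had 5438 and 12944 CPM (-1.25). The lambda constant regions had log2 ratios of -0.37 for Iglc1, -1.23 for Iglc2 and -0.11 for Iglc3. Because Iglc2 and Iglc3 are near-identical copies, the split between them is uncertain.

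Of 10 progenitor receptor genes, 7 were compared, and 4 of these were at least 2-fold higher, 3 within 2-fold and 0 lower (median 1.60). Against the Ms4a1 B cells held to the same limits, 4 were higher and 1 lower. Il7r, the receptor for the pre-B growth factor interleukin-7, had 675 CPM in Rag1 cells and 64.2 CPM in Ms4a1 B cells (3.39, interval 3.31 to 3.48). After thinning it was seen in 64.7% of Rag1 cells and 10.0% of Ms4a1 B cells (unthinned 84.9% and 19.7%). T cells, which use the same receptor, had 46.3% and give no background for it. Il2ra, which encodes CD25, the classical surface marker of small pre-B cells, had 154 and 14.2 CPM (3.44), and a thinned share of 24.6%, against 3.33% (unthinned 47.4% and 7.53%). T cells, some of which carry CD25, had 9.51%. Bst1, the gene of the stromal and pre-B surface enzyme CD157, had 94.8 and 19.9 CPM (2.25). Cd93, the AA4.1 marker of immature B cells, had 232 and 76.7 CPM (1.60). Cd24a and Ly6d, which mark B-lineage cells more widely, had log2 ratios of 0.29 and -0.56, and Il2rg, the shared cytokine receptor chain, -0.94. Kit, Flt3 and Spn stayed below 20 CPM in both classes and were not compared.

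Transcription factors were mixed: of 27, 25 were compared, 8 at least 2-fold higher, 2 lower and 15 within 2-fold (median 0.35). Sox4, an early lymphoid factor, had 1723 CPM in Rag1 cells and 203 CPM in Ms4a1 B cells (3.09), with medians of 7 and 0 UMIs per cell. Myb, a factor of progenitors, had 646 and 136 CPM (2.24), and Bach2, a repressor of plasma cell genes, 887 and 255 CPM (1.80). Irf4, which with IRF8 drives light chain rearrangement, had 314 and 126 CPM (1.32). Tcf3, which encodes E2A, had 543 and 217 CPM (1.32), and Ebf1, a founding factor of the B lineage, 4921 and 2006 CPM (1.29). Lef1 (1.16) and the co-activator Pou2af1 (1.02) completed the higher genes. The lower ones were Pou2f2, which encodes OCT2, with 114 CPM in Rag1 cells and 459 CPM in Ms4a1 B cells (-2.01), and Bcl11a with 75.8 and 282 CPM (-1.90). Pax5, the factor that holds B-cell identity, had 456 and 469 CPM (-0.04), and Spi1, Id2 and Id3 also lay within 0.1 of 0. Pou2af1 was under 2-fold against the 2680 Ms4a1 B cells held to the same limits (0.95), where the list had 7 genes higher and 4 lower.

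Receptor signalling genes went both ways: of 21 compared, 4 were at least 2-fold higher, 7 lower and 10 within 2-fold (median -0.13). Blnk, the adaptor that couples the pre-B receptor to its kinases, had 653 CPM in Rag1 cells and 241 CPM in Ms4a1 B cells (1.44). Dok3 (1.13), Fcrla (1.03) and the kinase Syk (1.01) were near the limit, and against the comparison cells held to the same limits they were 0.98, 0.90 and 0.88, which left 1 gene higher and 7 lower. The lower genes were led by the complement receptor Cr2 with 0.952 CPM in Rag1 cells and 25 CPM in Ms4a1 B cells (-4.72), after Fcer2a given above. Bank1, a scaffold of B-cell receptor signals, had 21.9 and 323 CPM (-3.88), and the phosphatase Ptpn6 79.7 and 502 CPM (-2.65). The inhibitory receptor Cd22 (-2.16), Fcrl1 (-1.37) and the phospholipase Plcg2 (-1.04) followed. Plcg2 was within 2-fold with Rag1 at 1 or more UMIs (-0.95) and with comparison cells from 1 Ms4a1 UMI upward (-0.94). The receptor partner Cd79b (0.15) and the kinases Btk (0.18), Lyn (-0.13) and Blk (0.40) were within 2-fold.

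Genes of antigen presentation were lower throughout their list. All 10 class II genes were at least 2-fold lower in Rag1 cells (median -3.98). Cd74, the invariant chain, had 345 CPM in Rag1 cells and 7555 CPM in Ms4a1 B cells (-4.45), with medians of 1 and 49 UMIs per cell. The classical chains H2-Aa, H2-Ab1 and H2-Eb1 had log2 ratios of -4.44, -3.99 and -5.03. Ciita, the master regulator of class II transcription, had 4.09 and 60.2 CPM (-3.88). H2-Ob, part of the modulator of peptide loading, had the smallest difference, with 102 and 248 CPM (-1.29). After thinning, Cd74 was seen in 31.3% of Rag1 cells, 91.4% of Ms4a1 B cells and 9.51% of T cells, and unthinned in 51.7%, 95.9% and 34.2%.

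Genes of positioning and egress gave 3 higher, 6 lower and 7 within 2-fold among the 16 of 18 compared (median -0.29). Cxcr4, which holds developing B cells at the CXCL12-rich niche of the marrow, had 759 CPM in Rag1 cells and 315 CPM in Ms4a1 B cells (1.27). Beside Rgs16, Rgs10 was higher (1.03, with 38.5 and 18.8 CPM). It was under 2-fold with Rag1 at 4 or more UMIs (0.63), with comparison cells from 1 Ms4a1 UMI upward (0.90), with the reduced total (0.93) and with median-of-ratios scaling (0.90). The lower genes were receptors of follicle and lymph node homing, Cxcr5 with 1.62 and 36.9 CPM (-4.51), Gpr183 with 7.71 and 67.7 CPM (-3.13) and Ccr7 with 94.7 and 339 CPM (-1.84), the integrin chains Itgb7 (-3.58) and Itgal (-2.26), and Rgs1 (-2.55). S1pr1, the receptor for exit into blood, had 94.1 and 145 CPM (-0.62). Ccr6 had 0 UMIs in Rag1 cells and 226 in Ms4a1 B cells, which is 10.5 CPM there, and was not compared.

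Survival genes gave 4 higher, 2 lower and 5 within 2-fold among 11 of 12 compared (median 0.06), and the pair of anti-apoptotic relatives Bcl2l1 and Bcl2 had opposite signs. Bcl2l1, which encodes BCL-XL, had 156 CPM in Rag1 cells and 17.1 CPM in Ms4a1 B cells (3.20). Bcl2 had 4.95 and 78.3 CPM (-3.98). The kinase Pim1 (1.54) and the pro-apoptotic genes Bmf (1.36) and Bbc3 (1.13) were higher, and Tnfrsf13c, the receptor for the B-cell survival factor BAFF, was lower with 170 and 492 CPM (-1.53). Mcl1, Bax, Bad and Bcl2l11 were within 2-fold.

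The cell-cycle lists need the rule in view, since Mki67 was fixed at 0 in Rag1 cells and was free in Ms4a1 B cells. Of 16 replication and mitosis genes compared of 17, 13 were at least 2-fold lower in Rag1 cells, 3 within 2-fold and 0 higher (median -1.61). Top2a had 19.7 CPM in Rag1 cells and 138 CPM in Ms4a1 B cells (-2.81). Against the Ms4a1 B cells held to the same limits it had 23.2 CPM there (-0.24), and of 9 genes then compared 0 were past 2-fold (median -0.24). In the list of cycle entry and exit, 3 genes were higher, 3 lower and 4 within 2-fold among 10 of 12 compared (median 0.13). Btg2 with 1370 and 571 CPM (1.26), Ccng2 (1.27) and Cdkn1b, which encodes the inhibitor p27, with 345 and 156 CPM (1.14) were higher. Ccnd2 with 10.3 and 146 CPM (-3.83), Myc with 8.28 and 66.1 CPM and Cdk6 (-1.04) were lower. Ccnd2 and Myc were still -3.68 and -2.99 against the comparison cells held to the same limits, where the list had 3 genes higher and 2 lower, and Cdk6 was no longer past 2-fold. Ccnd3, the cyclin that pre-B cells depend on, had 196 and 186 CPM (0.07).

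Immediate early genes, which respond to receptor signals and also to tissue dissociation, gave 2 higher, 8 lower and 4 within 2-fold among 14 of 15 compared (median -1.23). Nr4a1, an early target of antigen receptor signals, had 14.1 CPM in Rag1 cells and 186 CPM in Ms4a1 B cells (-3.72), and Egr1 had 39.4 and 391 CPM (-3.31). Fos (-2.14), Fosb (-1.47), Junb (-1.20), Ier2 (-1.26), Ier5 (-1.43) and Atf3 (-1.54) were also lower. Jun with 1139 and 317 CPM (1.84) and Jund with 3297 and 1343 CPM (1.30) were higher. Glycolysis genes were 1 lower and 9 within 2-fold among 10 of 13 compared (median -0.65). The lower gene was Ldha, with 81.5 and 210 CPM (-1.37), and it lay at -0.96 against the comparison cells held to the same limits.

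Markers of T, NK, innate lymphoid, myeloid and basophil cells were low in Rag1 cells, while some markers of other cells were not. The rule fixed Cd3e at 0 in Rag1 cells and left it free in Ms4a1 B cells, so the T and NK sums are not on equal terms. Against the Ms4a1 B cells held to the same limits, 0 T and 0 NK markers were high enough to be compared. The 8 T-cell markers summed to 46.8 CPM in Rag1 cells and 113 CPM in Ms4a1 B cells, and 6 Rag1 cells held 3 or more of their UMIs. The 6 NK markers summed to 17.5 and 47.6 CPM, the 4 innate lymphoid markers to 5.71 and 17.2 CPM, the 9 myeloid markers to 14.2 and 19.7 CPM, and the 4 basophil markers to 7.14 and 8.27 CPM. Cox6a2 and Bst2 made up most of the plasmacytoid dendritic list, which summed to 82.1 and 178 CPM. The stromal and vascular list summed to 166 and 112 CPM, of which Pecam1, also a gene of leukocytes, gave 161 and 106 CPM, while Col1a2, Dcn and Cldn5 had 0 UMIs in Rag1 cells. Of the neural and glial markers Snap25 and Gfap had 0 UMIs in both classes, and the list summed to 16.5 and 27.4 CPM. Of the 4 pro-B markers apart from Dntt, Igll1 and Vpreb1 were compared and higher, and Kit and Flt3 had 2.57 and 2.38 CPM in Rag1 cells. The plasma cell list was split, with Prdm1 at 23.7 CPM in Rag1 cells and 8.78 CPM in Ms4a1 B cells (1.43) and Sdc1, the gene of CD138, at 40.3 and 7.85 CPM (2.36), while Xbp1 was within 2-fold (-0.37). The erythroid list summed to 2847 and 87.0 CPM, from the 3 barcodes named above, and apart from them no Rag1 cell held more than 5 globin UMIs.

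The Rag1 cells were also set beside 3 other early B-lineage classes of the same library. These were 254 cells with Rag1 and at least 2 Ms4a1 UMIs that otherwise met the rule (median 4848.5 UMIs per cell), 488 pro-B cells with at least 2 Dntt and 3 Cd79a UMIs and no Mki67 or Cd3e (7108), and 498 cycling cells with at least 2 Mki67, 3 Cd79a and 3 surrogate light chain UMIs, at most 1 Dntt and no Cd3e (26458). Against the 254 cells with both genes, 35 of 6001 genes (0.583%) were at least 2-fold higher in Rag1 cells and 107 (1.78%) lower. Against the pro-B cells, 304 of 6412 genes (4.74%) were higher and 652 (10.2%) lower. Scrublet marked 15 of the 254 cells with both genes, and the part of doublets in that class was not tested.

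**Figure D3:**
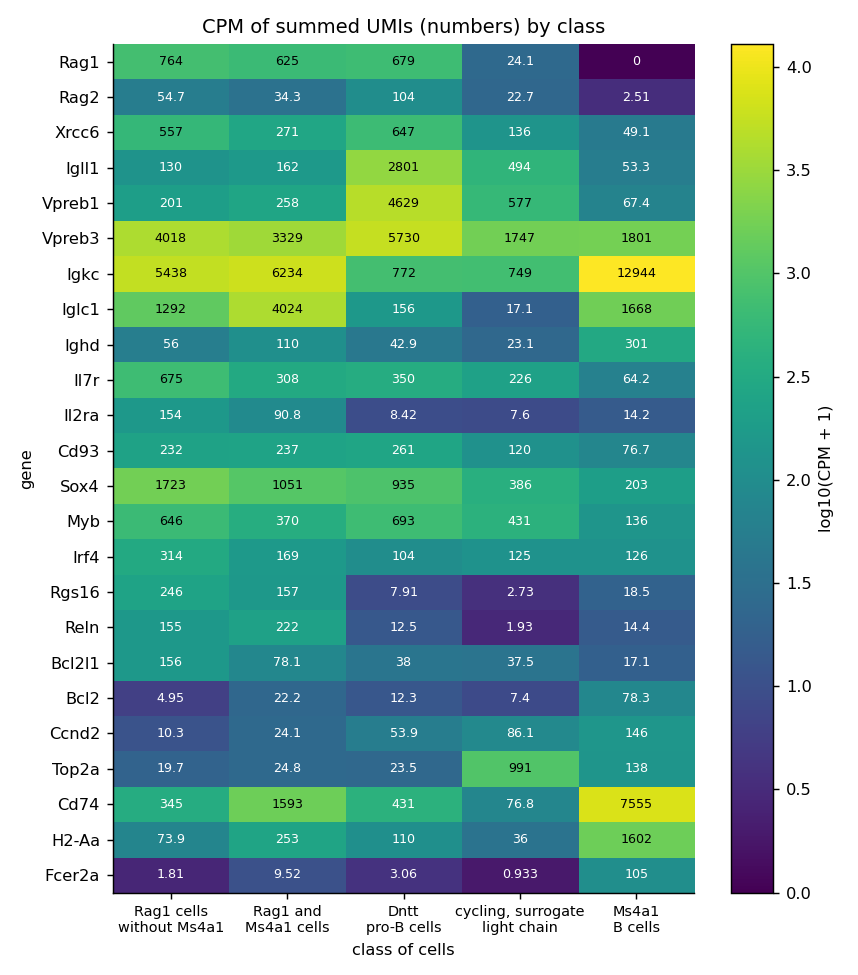
CPM of summed UMIs (numbers, colour on a log10 scale of CPM + 1) for 24 genes (rows) in 5 B-lineage classes of the mouse library (columns). Surrogate light chain genes peak in the pro-B cells, Rgs16, Il7r and Bcl2l1 in the Rag1 cells without Ms4a1, and class II genes in the Ms4a1 B cells.

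Surrogate light chain levels were highest in pro-B cells. Igll1 had 130 CPM in Rag1 cells, 162 CPM in cells with both genes, 494 CPM in cycling cells and 2801 CPM in pro-B cells, against 53.3 CPM in Ms4a1 B cells. Rgs16 was instead highest in Rag1 cells, with 246 CPM, followed by 157 CPM in cells with both genes. It had 2.73 CPM in cycling cells, 7.91 CPM in pro-B cells and 18.5 CPM in Ms4a1 B cells. Reln had 155 CPM in Rag1 cells, 222 CPM in cells with both genes, 12.5 CPM in pro-B cells and 1.93 CPM in cycling cells. Il2ra had 154 CPM in Rag1 cells, 90.8 CPM in cells with both genes, 8.42 CPM in pro-B cells and 7.6 CPM in cycling cells. Igll1 UMIs helped to choose the cycling cells, so the Igll1 level of that class is partly set by the choice. Rgs16, Reln and Il2ra, not used to choose any class, were higher in Rag1 cells than in pro-B and cycling cells. All of those classes carry Vpreb3.

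Il7r had 675 CPM in Rag1 cells, 308 CPM in cells with both genes, 350 CPM in pro-B cells and 226 CPM in cycling cells. In the same order of classes, Bcl2l1 had 156, 78.1, 38.0 and 37.5 CPM and Prg3 had 99.8, 19.0, 9.96 and 11.5 CPM. The Rag1 cells were the highest of these classes for all 3 genes, and the order of the others differed. Polm had 217 CPM in Rag1 cells and 174 CPM in cells with both genes, against 14.6 CPM in pro-B cells. Cd74 had 345 CPM in Rag1 cells, 1593 CPM in cells with both genes, 431 CPM in pro-B cells and 76.8 CPM in cycling cells, against 7555 CPM in Ms4a1 B cells. The cells with both genes therefore lay between the Rag1 cells and the Ms4a1 B cells for Cd74, and above both for Reln and for Iglc1, which had 1292 CPM in Rag1 cells, 4024 CPM in cells with both genes and 1668 CPM in Ms4a1 B cells.

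The Rag1 cells differed among themselves most plainly in light chain transcripts. The UMIs of Igkc and the sum of Iglc1, Iglc2 and Iglc3 were each called present at 10 or more, a limit chosen after the values were seen. At this limit 0.222% of T cells had Igkc and 0.222% had a lambda constant region. Igkc ranged from 0 to 231 UMIs with a median of 25 in Rag1 cells, against 0 to 13574 with a median of 70 in Ms4a1 B cells. The lambda sum had a median of 5 UMIs in Rag1 cells and 19 in Ms4a1 B cells. Values near the limit were common: 146 Rag1 cells had 8 to 12 Igkc UMIs and 179 had 8 to 12 lambda UMIs.

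Of the Rag1 cells, 1036 (53.7%, interval 51.5 to 56.0%) had kappa alone, 287 (14.9%, 13.3 to 16.5%) lambda alone, 458 (23.7%) both and 148 (7.67%, 6.52 to 8.95%) neither. Of the Ms4a1 B cells, 820 (26.7%) had kappa alone, 196 (6.39%) lambda alone, 2029 (66.1%) both and 24 (0.782%) neither. The calls say which constant region transcripts a barcode held, not which chain was rearranged or made. Among the 254 cells with both Rag1 and Ms4a1, 10.2% had kappa alone, 33.5% lambda alone, 54.7% both and 1.57% neither. Of the pro-B cells, 88.7% had neither. Median UMIs per Rag1 cell were 4100 with lambda alone, 4851 with both, 5699 with kappa alone and 4819 with neither.

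**Figure D4:**
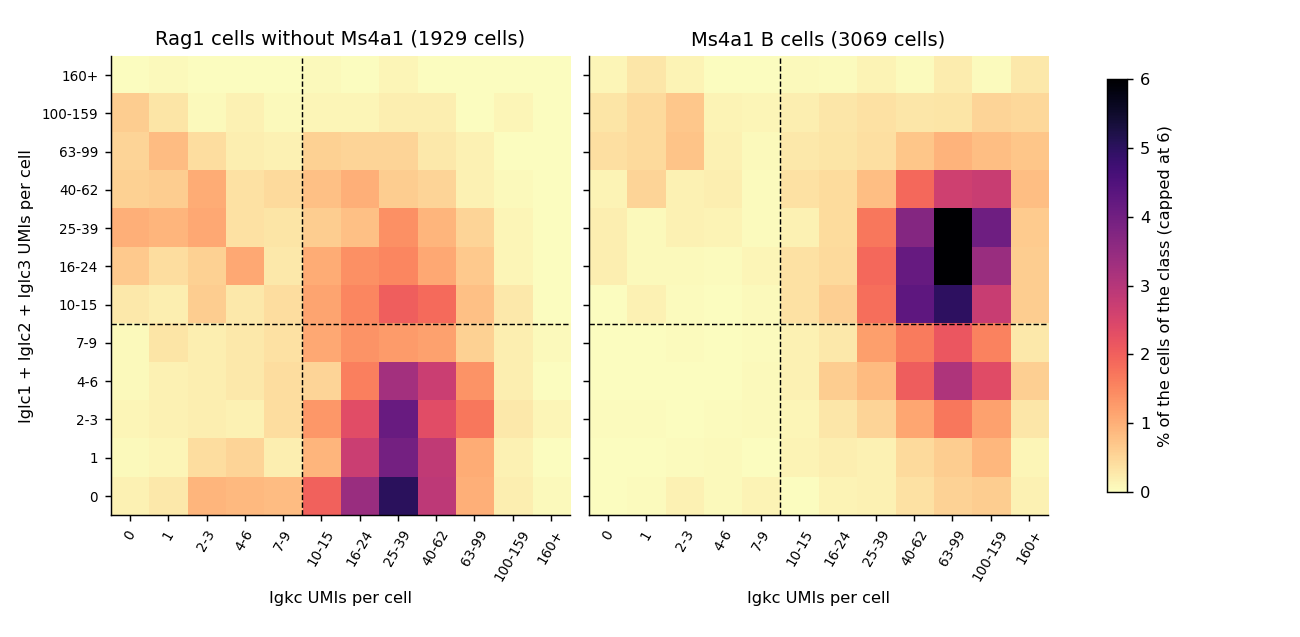
Share of cells (colour, capped at 6%) by Igkc UMIs per cell (x axis, bins) and by summed Iglc1, Iglc2 and Iglc3 UMIs per cell (y axis, bins) in Rag1 cells (left) and Ms4a1 B cells (right). Dashed lines mark the limit of 10 UMIs. Most Rag1 cells lie at kappa alone (53.7%), and most Ms4a1 B cells at both (66.1%).

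Surrogate light chain transcripts were concentrated in the 148 Rag1 cells with neither light chain. Vpreb1 had 1751 CPM there, against 16.7 CPM with both, 71.3 CPM with lambda alone and 88.0 CPM with kappa alone. Igll1 had 1183 CPM with neither, against 12.9, 32.3 and 51.7 CPM in the same order, and these 148 cells held 979 of the 1363 Igll1 UMIs of the Rag1 cells. Vpreb2 had 375 CPM with neither and 2.09, 15.7 and 5.60 CPM in that order again. Vpreb3 varied less, with 4776 CPM with neither, 2889 CPM with lambda alone, 3514 CPM with both and 4339 CPM with kappa alone. Rag2 had 83.4 CPM with neither and 46.4, 50.9 and 54.0 CPM with lambda alone, both and kappa alone. Top2a differed little, from 18.1 CPM with kappa alone to 25.4 CPM with neither, with counting intervals that overlap.

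Cells with lambda alone differed from those with kappa alone. Of 3207 genes with at least 50 CPM in the higher of the groups, 77 (2.40%) were at least 2-fold higher with lambda alone and 31 (0.967%) lower, and the median log2 ratio was 0.05. The light chain genes and the genes of the rule were left out of these counts. Rgs16 had 506 CPM with lambda alone and 162 CPM with kappa alone, and Reln had 364 and 83.8 CPM (2.12, interval 1.93 to 2.31). Ly6d had 4071 CPM with lambda alone and 1697 CPM with kappa alone, and the linker histone gene Hist1h1c 1088 and 502 CPM. In all 4 genes the cells with both light chains lay between, at 365 CPM for Rgs16, 253 CPM for Reln, 3406 CPM for Ly6d and 798 CPM for Hist1h1c. Ighm had 10041 CPM with lambda alone, 8576 CPM with both and 6097 CPM with kappa alone.

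**Figure D5:**
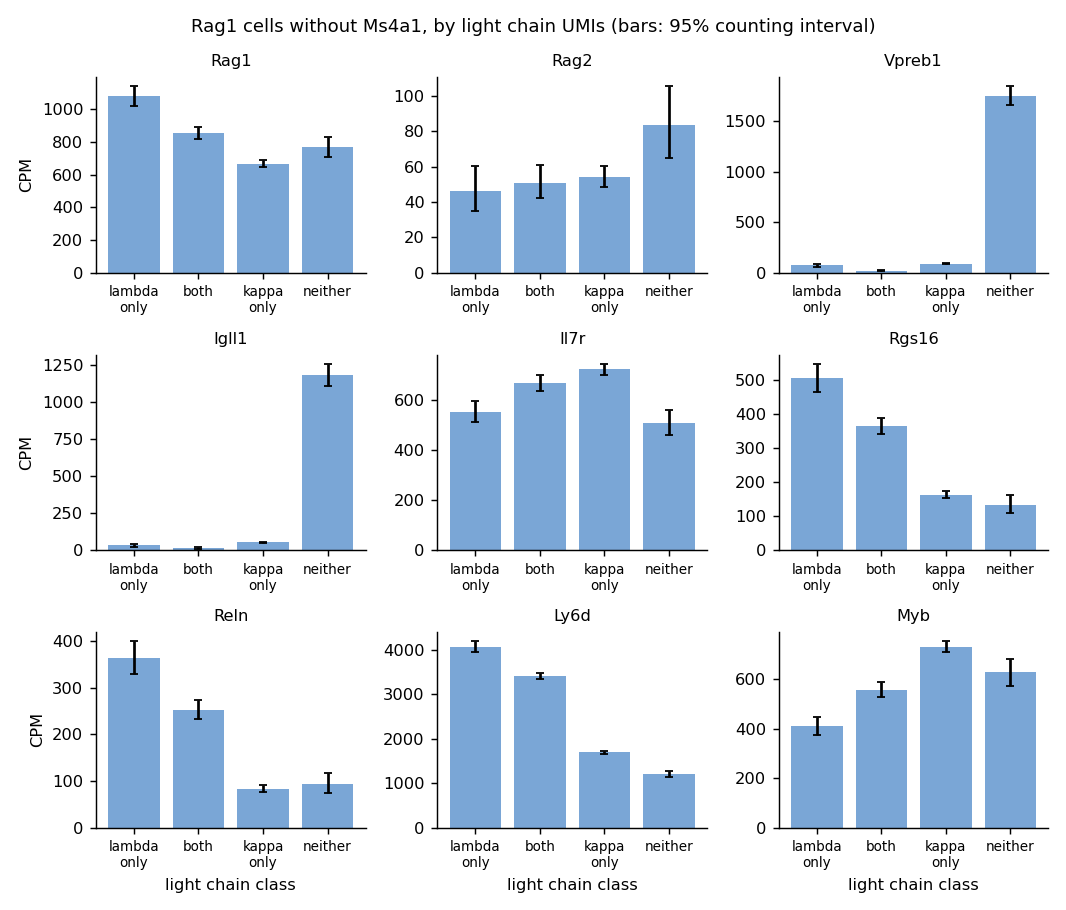
CPM of summed UMIs (y axes, each from 0) of 9 genes in Rag1 cells grouped by light chain UMIs (x axes), with 95% counting intervals as bars. Vpreb1 and Igll1 stand high with neither light chain, and Rgs16, Reln and Ly6d are highest with lambda alone.

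The largest ratio of lambda over kappa was that of Prdm1, which encodes the plasma cell regulator BLIMP1, with 81.2 CPM with lambda alone and 10.0 CPM with kappa alone (3.02, interval 2.54 to 3.50, from 98 and 61 UMIs). It was followed by Creb3l2 (2.19), Reln, the cytokine gene Ltb (2.06), Fgd6 (1.98), Svil (1.97), Fchsd2 (1.96), Sertad4 (1.96), Cyp4f18 (1.93) and Smco4 (1.93). The lowest ratios were those of the adaptor Sit1 with 11.6 and 60.1 CPM (-2.37), Rsph1 (-2.37), Plac8 with 105 and 480 CPM (-2.19), Grn (-2.11), Myl4 with 125 and 461 CPM (-1.88), the intermediate filament gene Vim (-1.66), Pgls (-1.64), Ptgr1 (-1.61), Rsph9 (-1.58) and Lgals1 (-1.52). Myb had 409 CPM with lambda alone, 557 CPM with both and 731 CPM with kappa alone. Il7r differed less, with 554, 669 and 724 CPM in the same order, and Sox4 with 1650, 1735 and 1776 CPM.

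Kappa variable segments were read rarely. Igkv UMIs numbered 932 in Rag1 cells, in 33.8% of the cells and over 88 of the 160 Igkv genes in the table, and 1683 in Ms4a1 B cells, in 34.1% of the cells and over 96 genes. The most counted 3 genes of each class took 42.8% of these UMIs in Rag1 cells and 18.3% in Ms4a1 B cells. This share was also high in the other early classes. It was 37.8% in cells with both Rag1 and Ms4a1, 55.8% in pro-B cells and 53.2% in cycling cells, from 135, 52 and 156 UMIs. Igkv1-135 (chromosome 6, 67609713 to 67610508, GRCm38) had 178 UMIs in 145 Rag1 cells, which is 19.1% of the Igkv UMIs, and 136 UMIs in Ms4a1 B cells (8.08%). Igkv1-35 (70010949 to 70011673) had 131 UMIs in Rag1 cells (14.1%) and 33 in Ms4a1 B cells (1.96%). Igkv1-110 had 90 and 85 UMIs (9.66% and 5.05%). The first lies 3112 kb and the second 712 kb from the joining segment Igkj1, so these segments do not share 1 end of the locus.

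Other segments were read mainly in Ms4a1 B cells, and there in few cells. Igkv14-126 had 0 UMIs in Rag1 cells and 86 in Ms4a1 B cells, from 14 cells. Igkv4-70 had 1 UMI in Rag1 cells and 62 in Ms4a1 B cells, 58 of them in 1 cell, and Igkv4-72 had 4 and 52, 45 of them in 1 cell. Igkv genes are a multigene family whose members share sequence, so the assignment of a read to 1 member is uncertain. Cells with Igkv UMIs can also hold unrearranged transcripts, which these counts do not separate.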

How the data were processed

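Gene expression was measured by 10x 3′-end single-cell RNA sequencing. The authors deposited raw UMI counts per gene and barcode, made with Cell Ranger on mm10 per the submitters' processing notes; its version, strand setting and annotation are not given in the sources used here. Only the mouse table (31017 genes, 128.09 M UMIs, median 6309 per barcode) was used, of which 14 barcodes fell to the filter of 300 detected genes. Coordinates come from GENCODE M21 (GRCm38, the same build as mm10), which holds 30477 of the genes by symbol.

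Counts were summed per class and given as CPM, with exact Poisson or conditional binomial 95% intervals that cover counting error only. A gene was compared at 20 CPM in the higher class and called past a ratio of 2 either way, a class with 0 UMIs being set to 3 counts. For shares, cells were thinned to 2000 UMIs. Named genes are the 15 largest and 15 smallest ratios with at least 50 CPM, without the genes of the rule, variable segments, ribosomal and mitochondrial genes and Gm or Rik models, and the members of 13 gene lists and 13 marker lists. The cells, lists and limits were chosen with earlier results of these data known. The ratio was tested on simulated class sums with known fold changes. These sums hold no spread between cells, so they cannot show how a ratio behaves when few barcodes hold most UMIs. Software was Python 3.11.15, numpy 2.4.6, scipy 1.17.1, pandas 2.3.3, scanpy 1.11.5 (Scrublet, seed 0), anndata 0.12.19 and matplotlib 3.10.9. Alternatives covered the Rag1 limit, cell filters, doublets, comparison cells, scaling, depth and the filter on low values.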

Additional observations from a re-analysis of the deposited data

How the results depend on the processing

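No paired analysis was possible because the mouse data are 1 library. With Rag1 at 4 or more UMIs, 960 cells met the rule. With a filter of 5 CPM, 700 genes were at least 2-fold higher and 958 lower in Rag1 cells, and with 100 CPM 196 and 118. The other 13 settings gave 355 to 480 higher and 330 to 662 lower. Thinned to 1000 UMIs, the share of Rag1 cells with a UMI was 4.61% for Rag2, 4.51% for Igll1, 86.4% for Igkc, 43.6% for Il7r, 16.3% for Rgs16, 12.8% for Reln and 18.7% for Cd74. Of 59 named ratios past 2-fold, 0 to 6 fell under it in any setting. With Ms4a1 at 1 UMI or more in the comparison cells these were Igll1, Vpreb1, Pou2af1, Ptprc, Rgs10 and Plcg2, and with every cell weighted equally Vpreb3, Pou2af1, Syk, Fcrla and Dok3. Without the 3 barcodes rich in globin, a setting chosen after seeing the data, Hbb-bt changed sign to -0.11. The cause of these changes was not tested. All values rest on 1 library of pooled ages, so animals, ages and the library cannot be told apart.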

Other observations

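Among abundant genes that no list held, several were more than 4-fold higher in Rag1 cells. They were chosen after their values were seen. Dnajc7, a co-chaperone, had 2374 CPM in Rag1 cells and 449 CPM in Ms4a1 B cells (log2 ratio 2.40), with medians of 12 and 2 UMIs per cell. Tifa, an adaptor of NF-kB signalling, had 1701 and 219 CPM (2.96), with medians of 9 and 1 UMIs. Atp1b1, a subunit of the sodium pump, had 1758 and 306 CPM (2.52). The chromatin genes Smarca4 and Cecr2 had 797 and 132 CPM (2.60) and 819 and 141 CPM (2.54). Across classes, Tifa and Smarca4 were also high in pro-B cells, at 1273 and 1102 CPM, whereas Dnajc7 had 344 CPM there and Atp1b1 572 CPM. The cells with both Rag1 and Ms4a1 had 1515 CPM of Dnajc7 and 1536 CPM of Atp1b1. Cd38, a surface enzyme of B cells, had 303 CPM in Rag1 cells and 116 CPM in Ms4a1 B cells (1.39).

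Itgam, the gene of the CD11b protein named in the sort, had 13.9 CPM in Rag1 cells, 25.5 CPM in pro-B cells, 5.71 CPM in cells with both Rag1 and Ms4a1 and 1.58 CPM in Ms4a1 B cells. After thinning it was seen in 2.55% of Rag1 cells (interval 1.89 to 3.35%), 0.425% of Ms4a1 B cells and 0.0556% of T cells. The myeloid marker list summed to 14.2 CPM in Rag1 cells and 19.7 CPM in Ms4a1 B cells, so those markers did not move with Itgam. Barcodes with 100 or more globin UMIs were also found among T cells (3) and among cells with both Rag1 and Ms4a1 (1), and none among Ms4a1 B cells.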
